A study of Mus musculus with 6 samples.

Results

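The genes described here are 10 genes of growth plate cartilage, *Acan*, *Hapln1*, *Comp*, *Chad*, *Matn1*, *Matn2*, *Matn3*, *Sox9*, *Ihh* and *Pth1r*, measured by RNA-Seq in whole mouse tibia. They were picked by name from the 55401 genes counted, and all 10 had a row of counts in each of the 6 libraries. The 3 control libraries came from male mice that carried the floxed *Atrx* allele (Atrx f/y) without Cre. The 3 Atrx-cKO libraries came from male mice with the same floxed allele and the Osterix-Cre transgene (Osterix-Cre; Atrx f/y). All mice were 8 weeks old. Osterix-Cre is active in cells of the osteoblast lineage and in enlarging chondrocytes, and is of the Tet-off type, so that doxycycline, given until weaning age, held Cre back before then. The controls carried no Cre, and therefore in these libraries any effect of the transgene itself cannot be told apart from that of *Atrx* loss. The paper also examined mice with Osterix-Cre and no floxed allele, which are not among these libraries. It reported no statistical difference from floxed controls in bone measures or in tibia *Runx2*, *Col1a1* and *Ocn*. The comparison of the 6 libraries asked whether the tibias of the 2 genotypes held the same amount of growth plate transcript. It also asked how much that amount varied from one tibia to the next.

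The growth plate is the layer of cartilage near each end of a long bone in which chondrocytes divide, enlarge and are replaced by bone. Its matrix is built on type II collagen and on aggrecan, which hangs on hyaluronan through link protein, while matrilins, COMP and chondroadherin connect the fibrils with the rest of the matrix. SOX9 switches on most of these matrix genes. Indian hedgehog, secreted by chondrocytes about to enlarge, and PTHrP, which acts through the receptor PTH1R, form the loop that sets how long chondrocytes keep dividing. Several of the genes are also used outside cartilage, since osteoblasts make PTH1R and tendon makes COMP.

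The promoters of *Acan*, *Hapln1*, *Matn1* and *Matn3* are shown because these 4 cartilage matrix genes differed in their courses across the 6 libraries, apart from *Acan* and *Hapln1*, which were alike. Each window runs from 250 bases before to 50 bases after a RefSeq start site on GRCm38.p6, and 7 of the 10 genes had at least 1 window, 9 windows in all. Capitals mark the SOX core ACAAT, the SOX and TCF core ACAAAG and the RUNX core TGTGGT, or the reverse complement of any of them, and no matches overlapped. The windows lie on the plus strand, at chr7:79052976-79053275 for *Acan*, chr13:89540386-89540685 for *Hapln1*, chr4:130944135-130944434 for *Matn1* and chr12:8947679-8947978 for *Matn3*.
Acan: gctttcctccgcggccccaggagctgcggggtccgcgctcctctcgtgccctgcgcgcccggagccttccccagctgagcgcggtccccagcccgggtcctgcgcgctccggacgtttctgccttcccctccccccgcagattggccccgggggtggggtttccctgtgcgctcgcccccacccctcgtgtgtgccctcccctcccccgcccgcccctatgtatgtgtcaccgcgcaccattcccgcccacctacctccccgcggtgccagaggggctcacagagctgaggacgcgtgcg
Hapln1: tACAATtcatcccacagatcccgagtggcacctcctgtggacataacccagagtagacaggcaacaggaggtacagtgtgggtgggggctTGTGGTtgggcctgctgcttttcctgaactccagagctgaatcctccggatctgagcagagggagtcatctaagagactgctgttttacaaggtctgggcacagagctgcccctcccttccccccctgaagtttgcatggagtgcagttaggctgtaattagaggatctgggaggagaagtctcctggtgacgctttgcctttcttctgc
Matn1: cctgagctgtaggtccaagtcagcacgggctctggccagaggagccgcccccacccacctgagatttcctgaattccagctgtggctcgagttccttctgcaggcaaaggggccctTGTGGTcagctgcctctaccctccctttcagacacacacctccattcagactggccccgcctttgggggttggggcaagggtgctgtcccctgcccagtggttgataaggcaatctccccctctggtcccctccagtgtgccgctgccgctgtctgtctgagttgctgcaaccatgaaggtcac
Matn3: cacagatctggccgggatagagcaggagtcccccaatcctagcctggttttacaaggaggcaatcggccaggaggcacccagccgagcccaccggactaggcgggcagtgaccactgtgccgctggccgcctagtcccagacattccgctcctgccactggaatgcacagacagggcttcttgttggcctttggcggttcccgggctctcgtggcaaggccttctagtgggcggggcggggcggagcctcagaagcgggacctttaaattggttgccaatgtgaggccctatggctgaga
The *Hapln1* window held 1 ACAAT and 1 TGTGGT, the *Matn1* window held 1 TGTGGT, and the *Acan* and *Matn3* windows held none of the 3 motifs. Among the 9 windows of the growth plate genes, 2 held ACAAT (*Hapln1* and *Ihh*), 1 held ACAAAG (1 of the 3 *Pth1r* windows) and 2 held TGTGGT. These motifs are common, since of the 32841 promoter windows of the same length ACAAT was found in 31%, TGTGGT in 16.8% and ACAAAG in 18.7%.

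Each library held between 50977777 and 70571655 counts on genes, so that 3 counts, taken as the floor of detection, equal 0.0450 to 0.0630 TMM-normalised CPM, the read count scaled to library size. The floor covers counting error only, and the confidence intervals given below are edgeR's and hold the spread between libraries. The total count of *Atrx* was 163 ± 9.54 CPM (SD, n = 3) in Atrx-cKO and 169 ± 4.98 CPM (SD, n = 3) in controls, and a count over the whole gene does not check the deletion of single exons. Control replicate 3 stood apart in muscle RNA. Its 12 skeletal muscle markers summed to 14400 CPM, against 972 and 1100 CPM in the other controls and 839 to 2920 CPM in Atrx-cKO, and none of the 12 was at 0 in any library. *Myh1* and *Myh2* went the other way, at 52.4 and 10.7 CPM in control replicate 3 and at 109 to 134 and 21.5 to 24.2 CPM in the other controls. In bulk tissue, fewer chondrocytes and less RNA in each chondrocyte cannot be told apart.

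None of the 9 growth plate genes with enough counts to be tested had an edgeR adjusted p under 0.05 between the genotypes (smallest 0.992). The fit took in all 20636 genes that passed a filter on low counts, with p-values adjusted over all of them by Benjamini-Hochberg. Several confidence intervals were wide, so equal levels were not shown. *Matn2* had the clearest difference, with 22.2 ± 3.18 CPM (SD, n = 3) in Atrx-cKO against 37.7 ± 5.89 CPM (SD, n = 3) in controls. By DESeq2 the adjusted p of *Matn2* was 0.00381. It rose above 0.05 when certain single libraries were left out, while the direction was kept. *Matn3*, *Col9a1* and *Col10a1*, which are made almost only by chondrocytes, were low in most tibias and high in replicate 3 of each genotype. *Acan* and *Pth1r* were, like these genes, lowest in control replicate 1, but control replicates 2 and 3 were their highest libraries. The osteoblast collagens were also lowest in control replicate 1 and above all Atrx-cKO libraries in control replicates 2 and 3, while the order among Atrx-cKO libraries differed. The plot of the 10 genes by library shows these values.

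**Figure D1:**
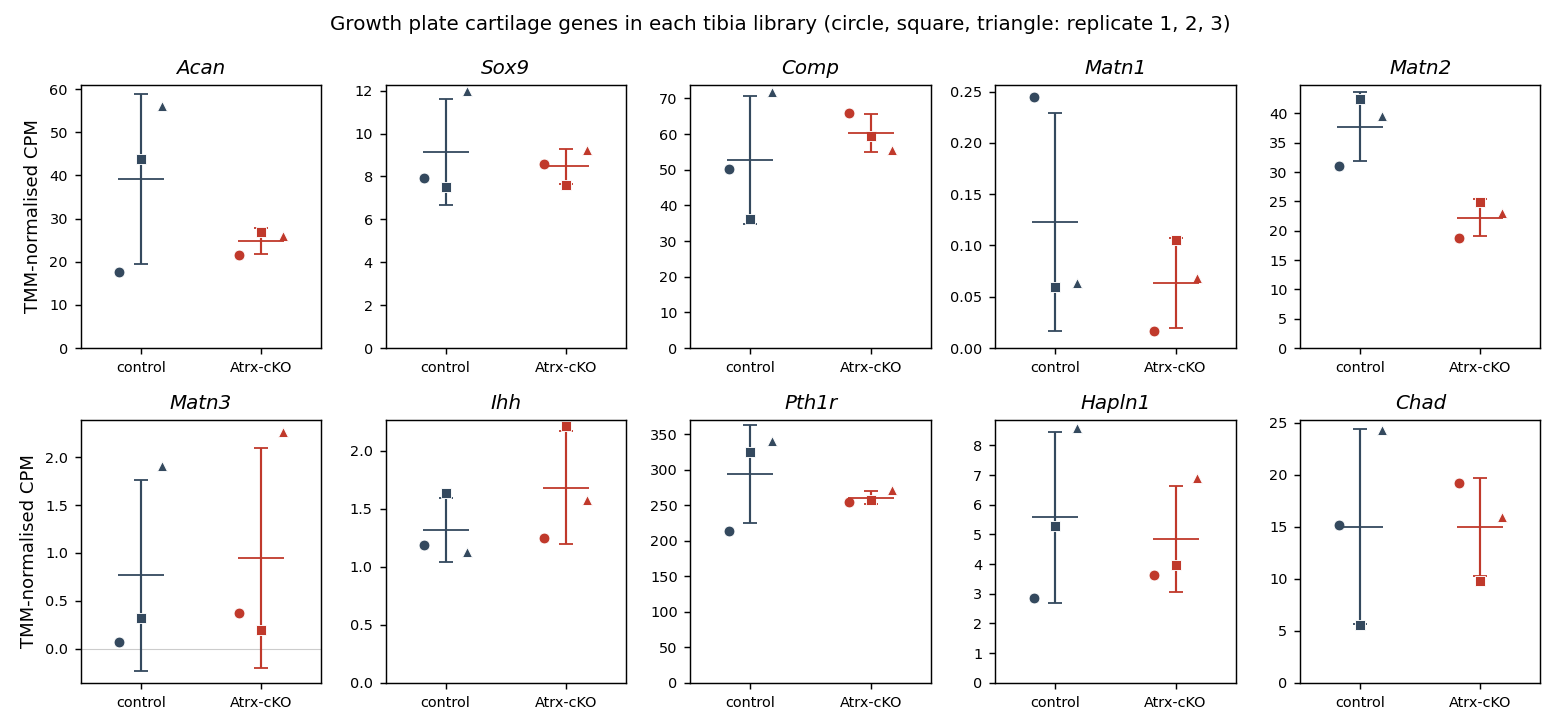
TMM-normalised CPM (vertical axes, linear, a scale for each gene) of the 10 growth plate genes in the 3 control and 3 Atrx-cKO libraries. Points are libraries, long bars are means and error bars are SD (n = 3). The Atrx-cKO points lie below all control points only for *Matn2* (18.7 to 24.9 against 31.1 to 42.4 CPM), and the replicate 3 triangles stand far above the other points for *Matn3* (2.27 and 1.91 CPM).

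*Acan* (ENSMUSG00000030607, chr7:79053483-79115099, plus strand, GRCm38) encodes aggrecan, the large proteoglycan that holds water in cartilage. It was at 21.5, 27.0 and 25.9 CPM in Atrx-cKO replicates 1 to 3 and at 17.6, 43.9 and 56.1 CPM in control replicates 1 to 3. The Atrx-cKO libraries were close together, while control replicate 1 lay below all of them and the other 2 controls above. The groups therefore overlapped, with a log2 fold change of -0.66 (SE 0.36, 95% CI -1.50 to 0.18, edgeR adjusted p = 0.992), Atrx-cKO minus control. This value turned on single controls. Without control replicate 3 it was -0.33 (edgeR adjusted p = 1). Without control replicate 1, the log2 fold change was -1.01 with an adjusted p of 0.0967 by edgeR and 4.04e-07 by DESeq2. Osteoblast genes moved with it: *Col1a1* was at 53500 CPM in control replicate 1, at 92500 and 82600 CPM in control replicates 2 and 3, and at 57600 to 58200 CPM in Atrx-cKO. With the mean level of 7 osteoblast genes as a covariate, added after the data were seen, the *Acan* value was 0.16 (SE 0.17, edgeR adjusted p = 0.999). That covariate was at 11.09, 11.21 and 11.26 (log2 CPM) in Atrx-cKO and at 11.07, 11.7 and 11.64 in controls. It was thus in part tied to genotype, and effects of genotype and of osteoblast content cannot be told apart.

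*Hapln1* (ENSMUSG00000021613, chr13:89539796-89611652, plus strand) encodes link protein, which ties aggrecan to hyaluronan. Atrx-cKO libraries held 3.64, 3.98 and 6.89 CPM and control libraries 2.86, 5.28 and 8.57 CPM. Replicate 3 was the highest library of each genotype, and the 2 ranges overlapped almost fully. Its log2 fold change was -0.20 (SE 0.41, 95% CI -1.15 to 0.75, edgeR adjusted p = 0.994), and it ran from -0.54 without Atrx-cKO replicate 3 to 0.23 without control replicate 3. The 12 genes for the chondroitin sulfate chains of aggrecan and for hyaluronan had a median log2 fold change of 0.00, equal to that of all tested genes, within -0.25 to 0.25. *Chst11*, a chondroitin sulfotransferase, was at 116 to 132 CPM in Atrx-cKO and 117 to 144 CPM in controls. *Chsy1*, a chondroitin synthase, had a log2 fold change of -0.25 (SE 0.13), and *Csgalnact1*, which starts the chain, one of 0.25 (SE 0.22).

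The matrilins are adaptor proteins of the extracellular matrix that share von Willebrand factor A domains. *Matn1* and *Matn3* are largely restricted to cartilage, and *Matn2* is made by many connective tissues. The 3 behaved in 3 ways.

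*Matn2* (ENSMUSG00000022324, chr15:34306677-34436273, plus strand) was at 18.7, 24.9 and 23.0 CPM in Atrx-cKO (1093, 1422 and 1354 counts) and at 31.1, 42.4 and 39.5 CPM in controls (1773, 2826 and 1881 counts). All Atrx-cKO libraries were below all control libraries, which held for 4.01% of the genes tested. The log2 fold change was -0.76 (SE 0.15, 95% CI -1.11 to -0.41), with an unadjusted p of 0.00114 and an adjusted p of 0.992 by edgeR. DESeq2 gave the same size (-0.76, SE 0.16) with an adjusted p of 0.00381, so that *Matn2* was the 1 growth plate gene among 10 to pass 0.05 in that test, where 0.142% of 25992 genes passed. It stayed below the study's threshold of 1 on the log2 scale in both tests. The DESeq2 call did not hold in every fit with 1 library left out. Its adjusted p was 0.0552, 0.0111 and 0.0511 without Atrx-cKO replicates 1, 2 and 3. Without control replicates 1, 2 and 3 it was 5.6e-06, 0.16 and 0.115. The unadjusted DESeq2 p was at most 0.000366 in these fits. Over the 23 settings tried the log2 fold change stayed between -0.88 and -0.54, the smallest size being that with the osteoblast covariate. *Matn2* shares 70 exonic bases with *9430069I07Rik* on the opposite strand, which was at 1.13 to 2.3 CPM.

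*Matn3* (ENSMUSG00000020583, chr12:8947929-8972028, plus strand) was at 0.376, 0.193 and 2.27 CPM in Atrx-cKO (22, 11 and 134 counts) and at 0.0701, 0.315 and 1.91 CPM in controls (4, 21 and 91 counts). Replicate 3 was far above the others in each genotype, and the highest library held 32.4 times the CPM of the lowest. These 2 libraries share a number in the labels, but over all genes same-numbered libraries did not deviate together. Whether they shared a factor that acted on single genes was not tested. The log2 fold change of 0.34 (SE 1.18, 95% CI -2.41 to 3.08, edgeR adjusted p = 0.994) ran from -1.39 without Atrx-cKO replicate 3 to 2.24 without control replicate 3. The interval was too wide to place the value on either side of 0.

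*Matn1* (ENSMUSG00000040533, chr4:130944385-130955475, plus strand) had 1, 6 and 4 counts in Atrx-cKO and 14, 4 and 3 counts in controls, or 0.0171 to 0.105 CPM and 0.0600 to 0.245 CPM. Control replicate 1 was its highest library, although that library was the lowest of all for *Matn3*. It did not pass the filter on low counts and so was not tested. DESeq2, which kept it, gave a log2 fold change of -0.96 (SE 1.19, adjusted p = 1), which was 0.05 without control replicate 1. *Matn4*, the remaining matrilin, which was in the list of other chondrocyte genes, was at 3.85 to 4.58 CPM in Atrx-cKO and 4.87 to 8.17 CPM in controls. Its log2 fold change of -0.74 (SE 0.22) had an unadjusted p of 0.0102 and an adjusted p of 0.992 by edgeR, and its groups did not overlap.

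*Comp* (ENSMUSG00000031849, chr8:70373558-70382066, plus strand) encodes cartilage oligomeric matrix protein, a pentamer that binds collagen fibrils in cartilage and tendon. It was at 65.8, 59.5 and 55.4 CPM in Atrx-cKO and at 50.1, 36.2 and 71.9 CPM in controls. All Atrx-cKO values lay between the controls, and control replicate 2, which was high in *Acan*, was the lowest library here. This gave a log2 fold change of 0.19 (SE 0.22, 95% CI -0.32 to 0.71, edgeR adjusted p = 0.992). It was -0.02 without control replicate 2 and 0.47 without control replicate 3.

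*Chad* (ENSMUSG00000039084, chr11:94565047-94569127, plus strand) encodes chondroadherin, a leucine-rich repeat protein through which chondrocytes attach to the matrix. Its levels were 19.2, 9.83 and 16.0 CPM in Atrx-cKO and 15.2, 5.54 and 24.3 CPM in controls. As for *Comp*, control replicate 2 was the lowest and control replicate 3 the highest library. The means of 15 ± 4.75 and 15 ± 9.37 CPM (SD, n = 3) gave a log2 fold change of 0.00 (SE 0.48, 95% CI -1.11 to 1.12, edgeR adjusted p = 0.999). Markers of joint and tendon, which could be attached to a dissected tibia, also varied. The 5 articular cartilage markers summed to 44.7 CPM in control replicate 2 and to 53.3 to 80.3 CPM in the other 5 libraries. The 6 tendon markers summed to 138 to 221 CPM in Atrx-cKO and 168 to 324 CPM in controls. In every library *Erg* (29.3 to 38.9 CPM) was the largest part of the first sum. *Fmod* (115 to 271 CPM) was the largest part of the second. None of these markers was at 0 throughout, and their part in the *Comp* and *Chad* values was not tested.

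*Sox9* (ENSMUSG00000000567, chr11:112782224-112787760, plus strand), the transcription factor required for chondrocyte identity, was at 8.60, 7.60 and 9.22 CPM in Atrx-cKO and at 7.91, 7.52 and 12 CPM in controls. Control replicate 3 was the highest, and the remaining libraries lay close together below it. The log2 fold change was -0.11 (SE 0.20, 95% CI -0.57 to 0.36, edgeR adjusted p = 0.993) and became 0.12 without that library. Of 8 other transcription factors of the chondrocyte lineage, 6 were tested and none passed, all with values below 0 (median -0.19, range -0.54 to -0.01). *Mef2c* and *Trps1*, the most abundant, had log2 fold changes of -0.22 (SE 0.13) and -0.16 (SE 0.13). *Nkx3-2* and *Sox6* had the largest ones, -0.54 (SE 0.49) and -0.31 (SE 0.26). The forkhead factors *Foxa2* and *Foxa3*, linked to chondrocyte enlargement, were at most at 0.28 CPM and were not tested.

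*Ihh* (ENSMUSG00000006538, chr1:74945315-74951672, minus strand) was at 1.25, 2.21 and 1.58 CPM in Atrx-cKO and at 1.19, 1.64 and 1.13 CPM in controls. Unlike the matrix genes, it was lowest in control replicate 3 and highest in Atrx-cKO replicate 2. Its log2 fold change was 0.34 (SE 0.29, 95% CI -0.33 to 1.02, edgeR adjusted p = 0.992). It was 0.08 without Atrx-cKO replicate 2.

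*Pth1r* (ENSMUSG00000032492, chr9:110722085-110747145, minus strand), the receptor of PTH and PTHrP, was at 255, 257 and 272 CPM in Atrx-cKO and at 214, 326 and 341 CPM in controls. The 3 Atrx-cKO libraries were nearly equal and lay between control replicate 1 and the other 2 controls. The log2 fold change was -0.17 (SE 0.17, 95% CI -0.56 to 0.23, edgeR adjusted p = 0.992). It was -0.09 without control replicate 2 and -0.06 without control replicate 3. Without control replicate 1 it was -0.35, with an adjusted p of 0.229 by edgeR and 0.00501 by DESeq2, and with the osteoblast covariate it was 0.15. It shares 95 exonic bases with *Myl3* on the opposite strand, which was at 2.26 to 2.90 CPM.

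The other 11 genes of the hedgehog and PTHrP loop were all tested, and none passed the adjusted or the unadjusted threshold (median log2 fold change -0.05, range -0.66 to 0.28). The hedgehog signal transducer *Smo* was at 78.1 to 79.9 CPM in Atrx-cKO and 66.1 to 91.8 CPM in controls, and the receptor *Ptch1* at 42.8 to 46.6 and 40.1 to 43.9 CPM. *Gli1*, a transcriptional target of hedgehog signaling, was at 12, 13 and 11.1 CPM in Atrx-cKO and at 8.94, 11 and 9.64 CPM in controls. Its groups did not overlap, as in 4.3% of the tested genes in that direction, and its log2 fold change was 0.28 (SE 0.13, edgeR unadjusted p = 0.0591, adjusted p = 0.992). The ligand gene *Pthlh* was near the floor at 0.105 to 0.525 CPM. The hedgehog release protein *Disp1* had a log2 fold change of -0.29 (SE 0.13). Of 6 receptors and ligands that set growth plate activity, 5 were tested and none passed. *Fgfr3*, a brake on chondrocyte division, was at 69.6 to 90.9 CPM in Atrx-cKO and 65.8 to 105 CPM in controls, and *Npr2*, the receptor of C-type natriuretic peptide, at 60.3 to 74.3 and 66.3 to 80.1 CPM. The peptide gene *Nppc* was at 0 to 0.308 CPM, and the clearance receptor *Npr3* had a log2 fold change of 0.27 (SE 0.19).

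The label of growth plate was checked against the other genes of cartilage, and these split in 2. *Col2a1*, the main cartilage collagen, was at 1070, 706 and 924 CPM in Atrx-cKO and at 1020, 1500 and 1450 CPM in controls. *Col11a1* was at 2610, 2900 and 3090 CPM in Atrx-cKO and at 2900, 5780 and 4880 CPM in controls, and *Col11a2* ran from 3080 to 4010 and from 3220 to 5520 CPM. For all 3, control replicates 2 and 3 were the highest libraries, as for *Col1a1*. The partner collagen of the same fibrils was far lower. *Col9a1* was at 2.51, 2.10 and 9.68 CPM in Atrx-cKO and at 0.876, 1.10 and 6.30 CPM in controls, and *Col9a3* at 2.38, 2.28 and 6.30 CPM and at 1.35, 1.77 and 3.72 CPM. *Col10a1*, the collagen of hypertrophic chondrocytes, was at 0.684, 1.19 and 31.3 CPM in Atrx-cKO and at 0.596, 2.03 and 9.14 CPM in controls. These 3 genes were highest in replicate 3 of each genotype, as *Matn3* was. Per kilobase of exon, the median CPM was 113 for *Col2a1* and 0.455 for *Col9a1*.

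Several chondrocyte markers were close to the floor. *Snorc* was at 0 in replicate 2 of each genotype and at most at 0.696 CPM, *Ucma* was at 0 in 3 libraries and at most at 0.356 CPM, and *Mia* was at 0 in all 3 controls and at most at 0.12 CPM in Atrx-cKO. Others were above it in most or all libraries. *Cnmd* was at 0.308, 0.525 and 2.78 CPM in Atrx-cKO and at 0.386, 0.315 and 1.66 CPM in controls. *Cytl1* ran from 0 to 1.28 CPM and *Scrg1* from 1.82 to 2.59 CPM. Among the genes of hypertrophic chondrocytes, *Mmp13*, the collagenase that osteoblasts make too, was at 595 to 832 CPM in Atrx-cKO and 741 to 1480 CPM in controls, and *Panx3* at 10.8 to 14.9 and 6.4 to 15.2 CPM. Chondrocyte markers thus did not order the libraries alike. *Matn3*, *Col9a1*, *Col10a1*, *Cnmd*, *Snorc* and *Ucma* were highest in replicate 3 of each genotype. So were *Pth1r*, *Sox9*, *Hapln1*, *Panx3* and *Mmp13*, and outside cartilage the osteoclast gene *Ctsk* and the osteocyte gene *Dmp1*. The share of all genes with this order was not counted. Among controls, *Matn1*, *Cytl1*, *Epyc* and *Scrg1* were highest in replicate 1, and *Clec3a* was nearly equal in replicates 1 and 3 (1.44 and 1.43 CPM). *Mia* was highest in Atrx-cKO replicate 1 and *Matn4* in control replicate 3 and Atrx-cKO replicate 1. *Matn1*, *Epyc* and *Mia* had at most 14, 7 and 7 counts in a library, and *Snorc* and *Ucma* at most 41 and 21, so their order is uncertain. Which cells of the tibia gave the *Col2a1*, *Col11a1*, *Acan* and *Pth1r* counts was not measured.

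**Figure D2:**
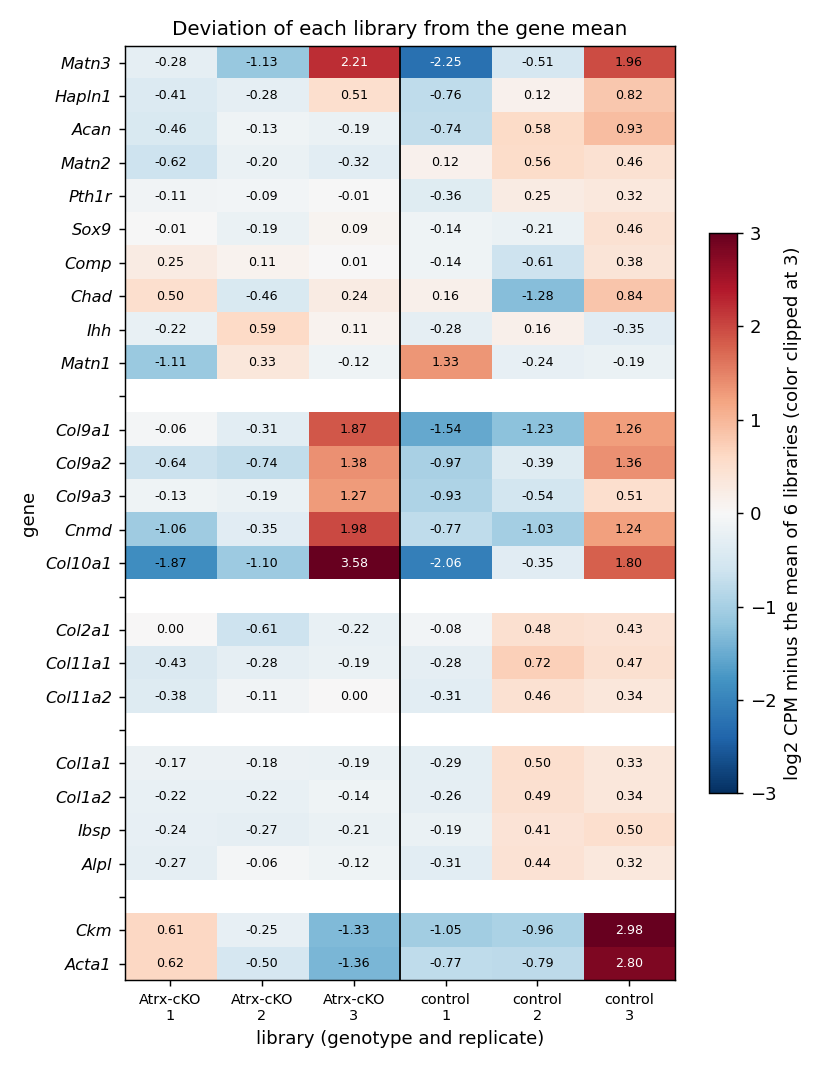
Deviation of each library (columns) from the mean of the 6 libraries, in log2 CPM, for the growth plate genes, other cartilage genes, osteoblast genes and 2 muscle genes (rows, blank rows between sets). Red is above and blue below the mean, and the color is clipped at 3. *Matn3*, *Col9a1* and *Col10a1* are red in replicate 3 of each genotype, while *Acan*, *Pth1r*, *Col11a1* and *Col1a1* are red in control replicates 2 and 3.

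The growth plate genes are read here against all genes, without a test of the set. With the thresholds of the study, an adjusted p below 0.05 together with a change of 1 or more on the log2 scale, 0 of 9 were called by edgeR, and 0.0145% of all genes tested were, the same 0.0145% that passed on the adjusted p alone. DESeq2 called 0 of 10 with both thresholds, where 0.0885% of genes were called. On the adjusted p alone, DESeq2 gave 1 of 10 (*Matn2*), beside 0.142% of genes. At an unadjusted p under 0.05, edgeR gave 1 of 9 (*Matn2*, lower), beside 3.64% of all genes. Of all genes, 2.05% were lower and 1.59% higher at that level. DESeq2 gave 1 of 10 there, beside 3.91% of all genes. The groups did not overlap in 1 of 9, beside 8.31% of all genes. Below 0 lay 5 of the 9 log2 fold changes, beside 48.8% of all genes, and their median was -0.11 beside 0.00. The cartilage collagens had 3 of 7 genes at an unadjusted p under 0.05, all lower (*Col2a1*, *Col11a1* and *Col27a1*), and a median of -0.36. None had an edgeR adjusted p under 0.992, and the smallest by DESeq2 was 0.305 (*Col11a1*). With the osteoblast covariate that median was 0.03. The remaining 6 growth plate lists had medians between -0.19 and 0.29 and the articular cartilage markers one of -0.22, with 1 gene at an unadjusted p under 0.05, *Matn4*. The osteoblast markers themselves had a median of -0.34, with 7 of 7 below 0. None had an adjusted p under 0.992 by edgeR, and the smallest by DESeq2 was 0.389 (*Ibsp*).

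**Figure D3:**
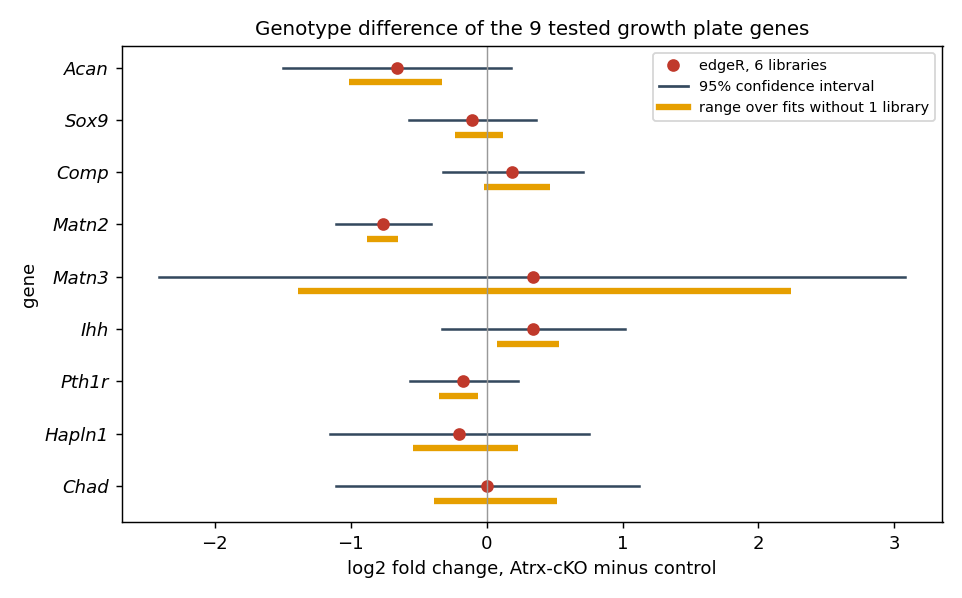
Log2 fold change, Atrx-cKO minus control (horizontal axis), of the 9 tested growth plate genes (vertical axis). Points are edgeR estimates from 6 libraries, thin lines 95% confidence intervals and thick lines the range over the fits that leave out 1 library. Only the interval of *Matn2* (-1.11 to -0.41) leaves out 0, and that of *Matn3* (-2.41 to 3.08) is the widest.

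How far the tibias of 1 genotype differed depended on the gene. *Pth1r* had a coefficient of variation of 3.48% among Atrx-cKO libraries and 23.6% among controls, and *Acan* 11.8% and 50.1%. *Comp* had 8.71% and 34.1%, *Chad* 31.7% and 62.5%, and *Hapln1* 37.0% and 51.5%. *Matn2* was about as even in Atrx-cKO (14.3%) as in controls (15.6%), and *Matn3* was the most uneven, with 122% and 131%. Only *Ihh* among the 9 tested genes varied more in Atrx-cKO, 29.0% against 20.8%. The SD of log2 CPM was thus larger among controls for 8 of 9, beside 54.9% of all genes tested. Other lists shared this, with 7 of 7 osteoblast, 5 of 5 erythroid, 4 of 4 B cell and 10 of 12 skeletal muscle markers more uneven among controls. Among controls, replicate 1 had the lowest osteoblast sum and the highest erythroid and B cell sums. Replicate 2 had the opposite extremes, and replicate 3 had the highest muscle sum. The median SD over the 9 genes was 0.21 in Atrx-cKO and 0.49 in controls, and over all genes tested 0.17 and 0.20. Among controls, the SD was above that of 99.6% of tested genes for *Matn3*, 96.5% for *Chad*, 94.2% for *Acan* and 92.5% for *Hapln1*, and at the low end 57.2% for *Matn2*. Among Atrx-cKO libraries, it was above that of 99.6% for *Matn3*, 85.4% for *Chad*, 85.3% for *Hapln1* and 80.4% for *Ihh*, and at the low end 9.52% for *Pth1r*. The difference in spread between genotypes was not tested.

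**Figure D4:**
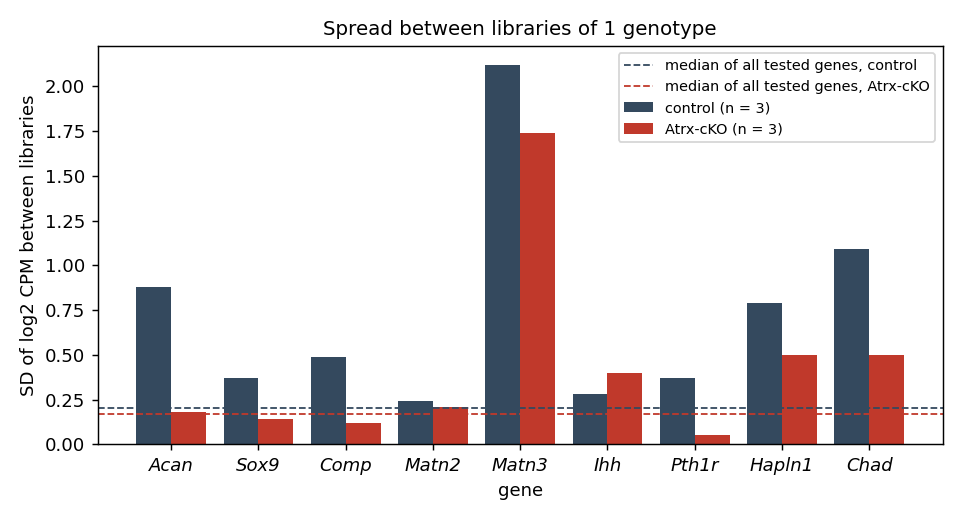
SD of log2 CPM between the 3 libraries of a genotype (vertical axis) for the 9 tested growth plate genes, controls in blue and Atrx-cKO in red. Dashed lines give the median SD over all tested genes, 0.20 in controls and 0.17 in Atrx-cKO. The control bar is the taller of the pair for 8 of the 9 genes, and *Matn3* has the tallest bars (2.12 and 1.74).

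By library, control replicate 3 was the highest of 6 for 6 of the 9 tested genes, *Acan*, *Sox9*, *Comp*, *Pth1r*, *Hapln1* and *Chad*, while 22.4% of all genes tested were highest there. Control replicate 1 was the lowest for 4 of the 9, beside 18.2% of all genes. The median deviation of the 9 genes from their 6-library means was 0.46 (log2) in control replicate 3, 0.12 in control replicate 2 and -0.28 in control replicate 1. In Atrx-cKO replicates 1, 2 and 3 it was -0.22, -0.19 and 0.09. Without *Matn2* and *Pth1r*, which other tissues of the tibia make too, it was 0.82 in control replicate 3 and -0.21 in control replicate 2. *Comp*, which tendon makes, was kept in that median. Single genes differed, as *Matn3* deviated by 2.21 in Atrx-cKO replicate 3 and by 1.96 in control replicate 3. For *Hapln1* these deviations were 0.51 and 0.82, and for *Acan* -0.19 and 0.93. Summed over the 10 genes, CPM ran from 393 to 412 in Atrx-cKO and from 340 to 557 in controls, and most of that sum was *Pth1r*.

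Per kilobase of exon, the growth plate genes spanned more than 3 orders of magnitude. *Pth1r* was first, with a median over the 6 libraries of 90.4 CPM per kilobase, followed by *Comp* (19.4), *Chad* (9.28), *Matn2* (4.47), *Acan* (3.54), *Sox9* (2), *Hapln1* (0.784), *Ihh* (0.464), *Matn3* (0.115) and *Matn1* (0.0327). The ranges of neighbors in this order were apart between *Pth1r* and *Comp* (73.2 to 117 against 12.2 to 24.2) and between *Sox9* and *Hapln1* (1.82 to 2.90 against 0.484 to 1.45). All other neighbors overlapped in their ranges. Within a library the order held in all 6 for *Comp* over *Chad* and for *Acan* over *Sox9*, in 5 of 6 for *Chad* over *Matn2*, *Matn2* over *Acan*, *Hapln1* over *Ihh* and *Matn3* over *Matn1*, and in 4 of 6 for *Ihh* over *Matn3*. The 2 libraries in which *Matn3* exceeded *Ihh* were replicate 3 of each genotype.

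**Figure D5:**
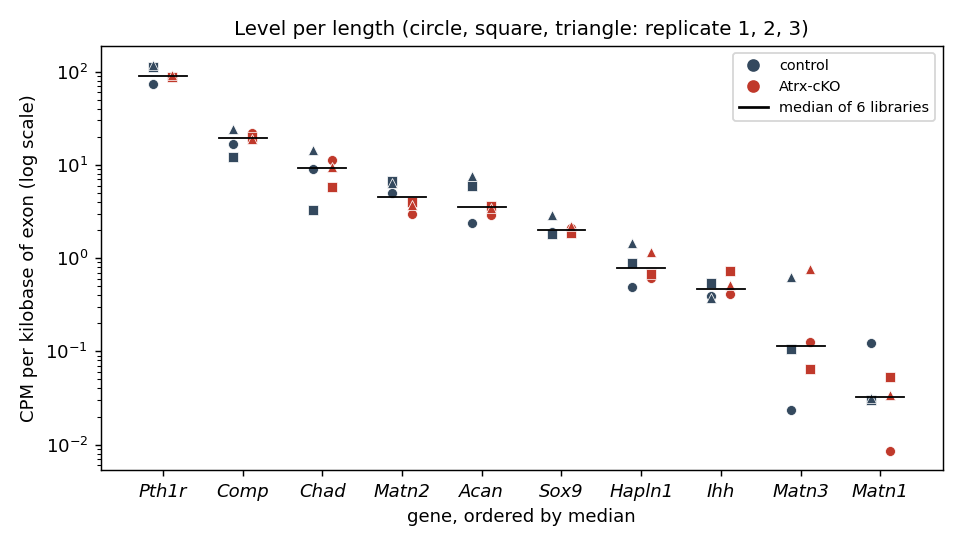
CPM per kilobase of exon (vertical axis, log scale) of the 10 growth plate genes, ordered by their median over 6 libraries (black bars), with controls in blue and Atrx-cKO in red. The medians run from 90.4 for *Pth1r* to 0.0327 for *Matn1*, and the points of *Matn3* reach from 0.0233 to 0.755.

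The likeness of profiles was measured as the root mean square distance between log2 CPM values over the 6 libraries, each gene centred on its own mean, and is a description without a test. Among the growth plate genes, *Sox9* was closest to *Pth1r* (0.23) and to *Comp* (0.24), and *Matn3* was at least 1.13 from each of the 8 others tested. Among the genes of the other lists, *Matn3* was nearest to *Col9a1* (0.63), *Col9a2* (0.71) and *Cnmd* (0.84). Over all 16163 candidate genes with a mean of at least 1 CPM, its 4 nearest were *Col9a1*, *Col9a2*, *Col10a1* and *Col9a3*. *Acan* was nearest in the lists to *Col11a1* (0.28) and to the osteoblast gene *Ibsp* (0.31), and *Pth1r* to *Trps1* (0.07), *Smo* (0.09) and *Runx2* (0.09). *Matn2* was nearest in the lists to *Col11a1* (0.20), and over all candidates to *Frzb* (0.093), a secreted Wnt inhibitor of cartilage, and to its antisense neighbor *9430069I07Rik* (0.104). *Ihh* was nearest in the lists to *Npr3* (0.20) and *Gli1* (0.22), and nearer over all candidates to *Gbp3* (0.079), *9330175E14Rik* (0.088) and *Nlrc5* (0.109). The mean profile of the growth plate genes was most like those of *Usp27x* (0.078), *2700069I18Rik* (0.086), *Neu2* (0.099), *Klhl33* (0.105), *Ttc23* (0.115), *Gm49463* (0.116), *Gm49327* (0.118), *Dpysl4* (0.130), *Col28a1* (0.138) and *9630013D21Rik* (0.138), none of which was in a cartilage list.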

How the data were processed

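PolyA-selected RNA from snap-frozen, pulverized tibias was sequenced as paired ends. The authors deposited raw read counts per gene for each of 6 libraries (3 per genotype), without normalization. The submitters' notes name GRCm38 and DESeq2, and the aligner, counter and its strand setting are not given in the sources used here, so reads of overlapping antisense genes cannot be told apart. Gene symbols were taken from GENCODE M21 (55141 of 55401 identifiers). Reads in no feature (51.6% to 52.4% of all per library) were left out.

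Counts were scaled by TMM, filtered by filterByExpr and tested with edgeR 4.0.16 (R 4.3.3) on genotype alone, over all genes, with Benjamini-Hochberg adjustment. DESeq2 1.42.0 was an alternative. CPM are TMM-normalised. Log2 CPM used a prior count of 2. The scripts were tested on simulated data. Same-genotype libraries differed by more than counting noise (chi-square per degree of freedom 15.8 to 137). No source says which mouse gave each library, so p-values measure the spread between these samples. The 10 genes, lists and tests were chosen with earlier results of these data known. From each cartilage list, the 2 genes with the highest mean CPM and the 2 with the largest log2 fold change were named, with *Col2a1* and *Col10a1*. *Col9a2*, *Col27a1*, *Cnmd*, *Gli1*, *Mia*, *Ucma*, *Ibsp*, *Runx2*, *Frzb*, *Epyc* and *Clec3a* were named after their values were seen. So were *Myh1*, *Myh2*, *Ctsk*, *Dmp1*, *Erg*, *Fmod*, the forkhead genes and the nearest genes of single members.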

Additional observations from a re-analysis of the deposited data

How the results depend on the processing

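With 3 libraries a group, single libraries set many of the values. In the planned settings with all 6 libraries, other scalings and filters changed no direction among the growth plate genes. Neither did a covariate of the mean level of the cartilage collagens, other chondrocyte genes and hypertrophic genes. With it *Matn3* was at 0.42 (SE 0.65) and the hypertrophic median at 0.32. *Chad*, just above 0 by edgeR, was 0.00 with the opposite sign by DESeq2, and with the muscle covariate *Sox9* was at 0.01, *Comp* at 0.35 (unadjusted p = 0.0409, adjusted p = 1, edgeR), *Matn3* at 1.4, *Hapln1* at -0.01, *Chad* at 0.31 and the hypertrophic median at 0.48. Leaving out each library in turn, by edgeR or by DESeq2, the log2 fold change ran from -1.01 to -0.32 for *Acan* (-1.01 by DESeq2 without control replicate 1, where it passed both thresholds), from -0.23 to 0.13 for *Sox9*, from -0.02 to 0.47 for *Comp*, from -1.42 to 2.28 for *Matn3*, from -0.55 to 0.24 for *Hapln1*, from -0.35 to -0.06 for *Pth1r*, from 0.08 to 0.53 for *Ihh*, from -0.88 to -0.65 for *Matn2* and from -0.39 to 0.52 for *Chad*. The median log2 fold change ran from -0.37 to 0.23 for the growth plate genes, from -0.63 to 0.65 for the hypertrophic genes and from -0.41 to 0.05 for the receptors and ligands that set growth plate activity. Growth plate genes with an adjusted p under 0.05 numbered 0 to 3 and those called 0 to 1, the highest of each by DESeq2 without control replicate 1, the 3 being *Acan*, *Matn2* and *Pth1r*.

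Of all genes, 3 were called higher and 0 lower by edgeR, and with a library left out 0 to 5 were called higher and 0 to 1 lower, with 0 to 5 at an adjusted p under 0.05. With DESeq2 in addition, the ranges reached 25, 48 and 516, all without control replicate 1. DESeq2 on all 6 libraries called 10 higher and 13 lower, with 37 genes and 1 growth plate gene at an adjusted p under 0.05. Without a filter, edgeR called 1 lower and had 10 genes under 0.05, and with at least 10 counts in every library 1 was called higher, the 1 gene under 0.05. Over all tested genes, the deviations of same-numbered libraries were close to uncorrelated (-0.0254, 0.0619 and -0.0707 for numbers 1, 2 and 3). Whether such libraries shared a factor that acted on single genes was not tested. With the replicate block, 0 genes passed, and *Matn2* was at -0.76 with an edgeR adjusted p of 0.248. The SE of each tested growth plate gene was smaller with the block, as for *Matn3* (0.58 against 1.18) and *Matn2* (0.08 against 0.15).

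Further settings were chosen after seeing the data. Without replicate 3 of both genotypes, *Sox9* was at 0.06 and 1 gene was called lower. *Comp* was then at 0.53 (edgeR unadjusted p = 0.0207), and 0 growth plate genes passed after adjustment. The hypertrophic median was -0.33 in that fit, against 0.29 with all 6 libraries. With the osteoblast covariate, *Acan* was at 0.16, *Sox9* at 0.01, *Pth1r* at 0.15, *Hapln1* at 0.49, *Chad* at -0.13 and *Matn3* at 2.80 (unadjusted p = 0.0993, adjusted p = 0.999, edgeR), the medians were 0.75 for the hypertrophic genes, 0.03 for the cartilage collagens, -0.05 for the chondrocyte transcription factors and 0.12 for the growth plate receptors and ligands, and 0 genes were called higher and 1 lower, the 1 gene under 0.05. The osteoblast covariate was in part tied to genotype, and the causes of these changes were not tested.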
